A study of Mus musculus with 6 samples.

Results

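The interferon-induced transmembrane (IFITM) family was followed in mouse CD8+ T cells as 5 listed genes, Ifitm1, Ifitm2, Ifitm3, Ifitm6 and Ifitm10, of the 19938 genes that the array could name. They were taken by gene symbol, each through whichever of its probe sets averaged highest on the 6 arrays. All 5 had values, and 4 of them passed the filter on low values, Ifitm6 being the exception. The family was chosen by measured values of these arrays, namely that Ifitm1 read higher in primed than in naive cells while most interferon-stimulated genes read lower. Differences between primed and naive cells are therefore given as descriptions without a test, for the members and for other genes, and the contrast between the primed groups is the one that was tested.

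The 6 arrays were Affymetrix arrays of total RNA, and they fell into 3 groups of 2. Cells primed with IL-12 and cells primed with IL-2 had 4 days with their antigen, the melanoma protein gp100, and 6 days with the cytokine, while the study's design text gives 6 days for both. Naive cells came straight from the spleen by a sort for CD8+ Thy1.1+, and no sort is named for primed cells. All cells came from spleens of female C57BL/6 mice transgenic for the Pmel-1 T cell receptor, which recognises gp100, so the groups share strain, sex and receptor. The comparison was made to look for what such T cells need to act on tumours in the animal. Since it is not stated whether the arrays within a group had different mice or cultures behind them, the spread behind the p-values may be purely technical. Arrays of 1 group correlated at 0.986 to 0.994 across the tested genes, and the small number of arrays limits the precision.

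IFITM proteins are short membrane proteins that sit in the plasma membrane and in endosomes and hinder the fusion of enveloped viruses with the cell. Interferons of both types induce them in many cells through transcription factors that bind the interferon-stimulated response element (ISRE) and the gamma-activated site (GAS). In CD8+ T cells, Ifitm3 is known for protecting memory cells in the lung from infection. In human lymphocytes IFITM1 is also known as Leu-13 and occurs at the surface with CD81.

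Ifitm5, Ifitm2, Ifitm1, Ifitm3 and Ifitm6 lie in 1 cluster on mouse chromosome 7, Ifitm10 lies elsewhere on that chromosome, and Ifitm7 lies on chromosome 16. The promoter windows of Ifitm1, Ifitm2 and Ifitm3 are shown because these members read high in primed cells. Most listed type I interferon-stimulated genes read lower there than in naive cells, a pattern that was used in choosing the family. Each window runs 5′ to 3′ from 250 bases before the annotated transcript start to 50 bases after it, taken from RefSeq (GRCm38.p6), with matches to the ISRE core in capitals. Ifitm1 is chr7:140967826-140968125 on the plus strand, Ifitm2 is chr7:140955912-140956211 on the minus strand and Ifitm3 is chr7:141010695-141010994 on the minus strand.
Ifitm1: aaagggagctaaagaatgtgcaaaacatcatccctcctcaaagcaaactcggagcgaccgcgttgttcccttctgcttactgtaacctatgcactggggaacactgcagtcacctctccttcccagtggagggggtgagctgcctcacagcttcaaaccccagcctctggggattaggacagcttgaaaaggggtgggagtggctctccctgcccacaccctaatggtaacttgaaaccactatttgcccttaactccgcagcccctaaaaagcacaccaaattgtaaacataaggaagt
Ifitm2: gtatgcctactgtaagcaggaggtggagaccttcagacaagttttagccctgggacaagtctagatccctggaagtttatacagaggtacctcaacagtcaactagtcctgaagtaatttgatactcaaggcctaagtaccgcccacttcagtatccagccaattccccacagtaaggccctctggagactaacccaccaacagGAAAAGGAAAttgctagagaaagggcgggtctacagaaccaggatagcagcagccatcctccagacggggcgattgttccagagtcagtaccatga
Ifitm3: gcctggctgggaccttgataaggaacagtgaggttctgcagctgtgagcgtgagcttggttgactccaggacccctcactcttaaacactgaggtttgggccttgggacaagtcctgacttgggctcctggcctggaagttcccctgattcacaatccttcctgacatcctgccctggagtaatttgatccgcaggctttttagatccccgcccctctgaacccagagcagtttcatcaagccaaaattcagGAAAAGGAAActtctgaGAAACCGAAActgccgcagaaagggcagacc

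The motifs searched were the ISRE core, which is the letters GAAA 2 times with any 2 bases between them, on both strands, and the GAS letters TTCNNNGAA, which read the same on both strands. The ISRE core was found in 3.44% of all 32851 promoter windows of that length and the GAS letters in 8.3%. The Ifitm2 window held 1 ISRE core, GAAAAGGAAA, from base -46 to base -37 relative to the start. The Ifitm3 window held the same 10 letters from base 3 to base 12 after the start and a second core, GAAACCGAAA, from base 20 to base 29. A GAS match, TTCTGAGAA, overlapped that second core in Ifitm3. The Ifitm1 window held neither motif, which says only that these letters are not in this window. The Ifitm6 window held 1 GAS match, and the windows of Ifitm5, Ifitm7 and Ifitm10 held none of either motif.

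For comparison, the ISRE core stood in the windows of 14 of 27 listed type I interferon-stimulated genes and of 8 of 16 listed interferon gamma responsive genes with a promoter entry, and in 3.99% of all genes with one. The stretches that carry the matches are shown for Ifit1 and Ifit3, which read low in primed cells, and for Gbp3 and Gbp5, which rose in IL-12 primed cells. Ifit1 is chr19:34640775-34640823, Ifit3 is chr19:34583363-34583426, Gbp3 is chr3:142559989-142560024 and Gbp5 is chr3:142496759-142496788, all on the plus strand of GRCm38.p6. Capitals mark the core, here on the opposite strand, and in Gbp3 a pair of matches overlaps.
Ifit1: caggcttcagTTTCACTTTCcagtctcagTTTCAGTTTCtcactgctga
Ifit3: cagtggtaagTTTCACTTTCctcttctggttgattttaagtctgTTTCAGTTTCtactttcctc
Gbp3: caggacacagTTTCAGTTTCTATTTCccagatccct
Gbp5: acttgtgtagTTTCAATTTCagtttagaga

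**Figure D1:**
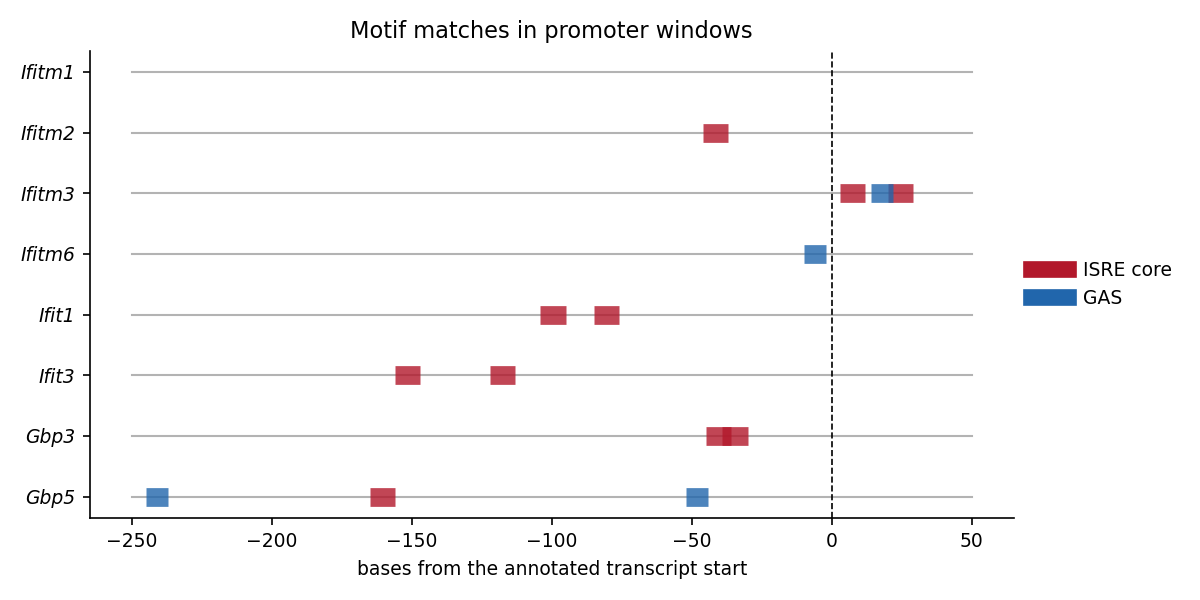
Matches to the ISRE core (red) and to the GAS letters (blue) in the promoter windows of 4 IFITM genes and 4 other interferon-induced genes, on an axis of bases from the annotated transcript start (dashed line). Ifitm2 and Ifitm3 hold ISRE cores and Ifitm1 holds neither motif.

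Ifitm1, Ifitm2 and Ifitm3 read high in both primed groups, Ifitm10 read lower there, and Ifitm6 stayed low throughout. Values are log2 RMA values, 1 per array with replicate 1 before replicate 2, so a difference of 1 is a 2-fold difference, and levels are compared within a gene only. Ifitm1, the member described at the cell surface, read 13.59 and 13.68 in IL-12 cells, 12.80 and 13.06 in IL-2 cells, and 8.40 and 7.50 in naive cells. Both IL-12 arrays lay above both IL-2 arrays, and these above both naive arrays. Its difference from naive cells was 5.69 in IL-12 cells and 4.98 in IL-2 cells on the log2 scale, the fifth highest of 11147 tested genes in both contrasts. Both arrays of a primed group lay above both naive arrays in 42.5% of all tested genes for IL-12 and in 38.7% for IL-2, and these contrasts, which share the naive arrays, were used in choosing the family. In such bulk samples, a difference in the number of cells of a type and one in RNA per cell cannot be told apart.

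Ifitm2, which encodes a member found in endosomes, read 11.69 and 11.97 in IL-12 cells, 11.44 and 11.39 in IL-2 cells, and 7.52 and 7.71 in naive cells. Again the 3 groups did not overlap, and the naive arrays lay close together. The difference from naive cells was 4.22 in IL-12 cells and 3.80 in IL-2 cells. Ifitm3, which encodes the endosomal member best known for restricting influenza virus, read 11.95 and 12.43 in IL-12 cells, 11.61 and 11.79 in IL-2 cells, and 7.36 and 8.44 in naive cells. The order of the groups was that of Ifitm1 and Ifitm2, with the naive arrays about 1 log2 unit apart. Ifitm3 differed from naive cells by 4.29 in IL-12 cells, a 19.6-fold difference, and by 3.80 in IL-2 cells, a 13.9-fold difference. Among the 11147 tested genes ranked by this difference, Ifitm2 stood at 49 and Ifitm3 at 41 in IL-12 cells, and Ifitm2 at 61 and Ifitm3 at 62 in IL-2 cells.

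The naive arrays did not order the members alike: naive replicate 1 was the higher one for Ifitm1 and the lower one for Ifitm3. Leaving out naive replicate 1 put the difference between IL-2 and naive cells at 5.43 for Ifitm1 and 3.27 for Ifitm3, and leaving out naive replicate 2 put it at 4.53 and 4.34. With naive replicate 1 alone, the differences of Ifitm1 and Ifitm3 were thus close, and with naive replicate 2 alone they were not. This holds for the probe sets used. On the second probe set of Ifitm1 (10570434) the naive arrays lay closer together, at 6.53 and 6.30. In Ifitm2, naive replicate 1 was the lower one on probe sets 10383756 and 10553299 and the higher one on 10569014 (7.64 and 7.17).

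Ifitm10, a family member of which little is known, ran the other way. It read 6.87 and 6.75 in IL-12 cells, 7.27 and 7.17 in IL-2 cells, and 8.35 and 7.90 in naive cells. The groups did not overlap, as was so in this direction against naive cells in 36.7% of tested genes for IL-12 and in 35.2% for IL-2. The IL-12 arrays lay near the filter value of 6.83, the median of all values in the table. The difference from naive cells was -1.32 in IL-12 cells and -0.91 in IL-2 cells. Ifitm6 read 5.49 and 5.61 in IL-12 cells, 5.46 and 5.47 in IL-2 cells, and 5.70 and 6.11 in naive cells. It was below the filter value on every array and was not tested.

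Ifitm5, the osteoblast member of the cluster, and Ifitm7 are family genes that were not listed. Ifitm5 averaged 7.07 ± 0.01 in IL-12, 7.08 ± 0.23 in IL-2 and 7.17 ± 0.15 in naive cells (SD, n = 2 each). Ifitm7 averaged 7.22 ± 0.12 in IL-12, 7.09 ± 0.03 in IL-2 and 7.21 ± 0.04 in naive cells (SD, n = 2 each). In neither gene did any 2 groups differ by more than 0.14 on the log2 scale. With Syndig1l and Tmem91 they were the 4 tested genes of a list of related genes. Of these limma called 0 between the primed groups, also at an unadjusted p under 0.05, against 20.8% of all tested genes called.

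**Figure D2:**
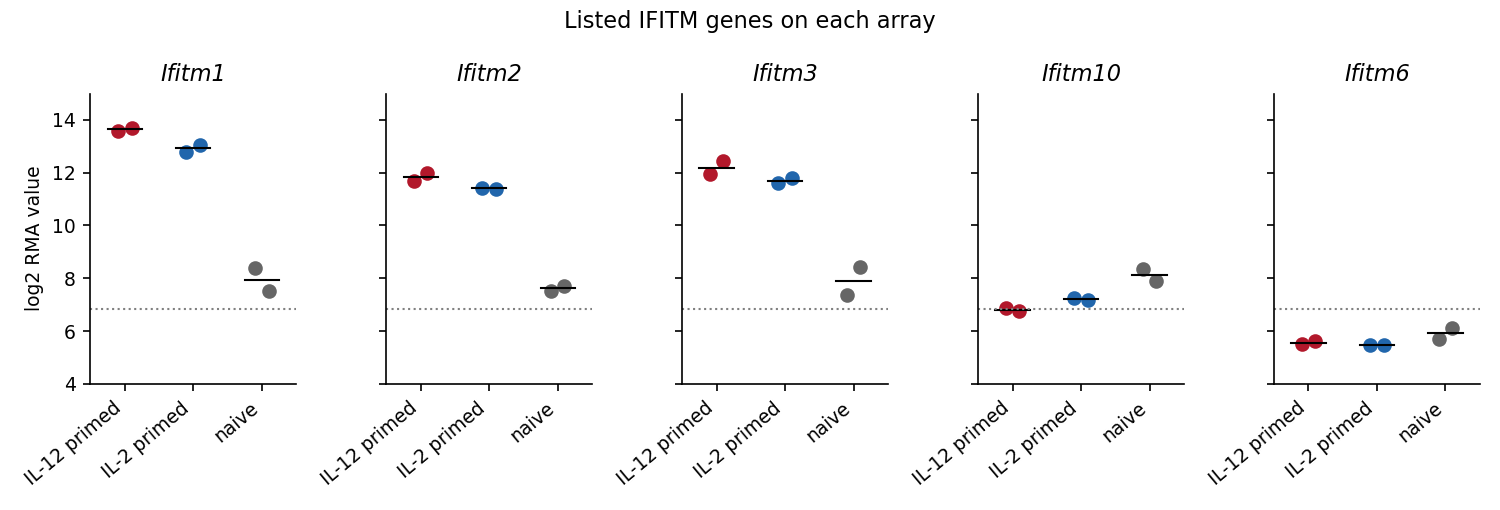
Log2 RMA values of the 5 listed IFITM genes on each of the 6 arrays, by group; points are arrays, black bars group means and the dotted line the filter value of 6.83. Ifitm1, Ifitm2 and Ifitm3 lie above 11 in both primed groups and below 9 in naive cells, Ifitm10 runs the other way and Ifitm6 stays under the line.

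Ifitm1 was measured by 2 probe sets and Ifitm2 by 3, each annotated with the same transcripts as the other probe sets of its gene. The second probe set of Ifitm1 (10570434) read 12.68 and 12.99 in IL-12 cells, 11.91 and 12.21 in IL-2 cells, and 6.53 and 6.30 in naive cells. Its difference from naive cells, 6.42 in IL-12 and 5.65 in IL-2 cells, was larger than that of the first probe set (10558769), and its naive arrays lay closer together. The other probe sets of Ifitm2 (10569014 and 10553299) differed from naive cells by 3.87 and 3.95 in IL-12 cells and by 3.42 and 3.59 in IL-2 cells, slightly less than the one used (10383756). All 5 probe sets put the groups in the same order without overlap. Ifitm1, Ifitm2 and Ifitm3 are closely related in sequence, and whether probes of one also bound RNA of another was not tested.

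**Figure D3:**
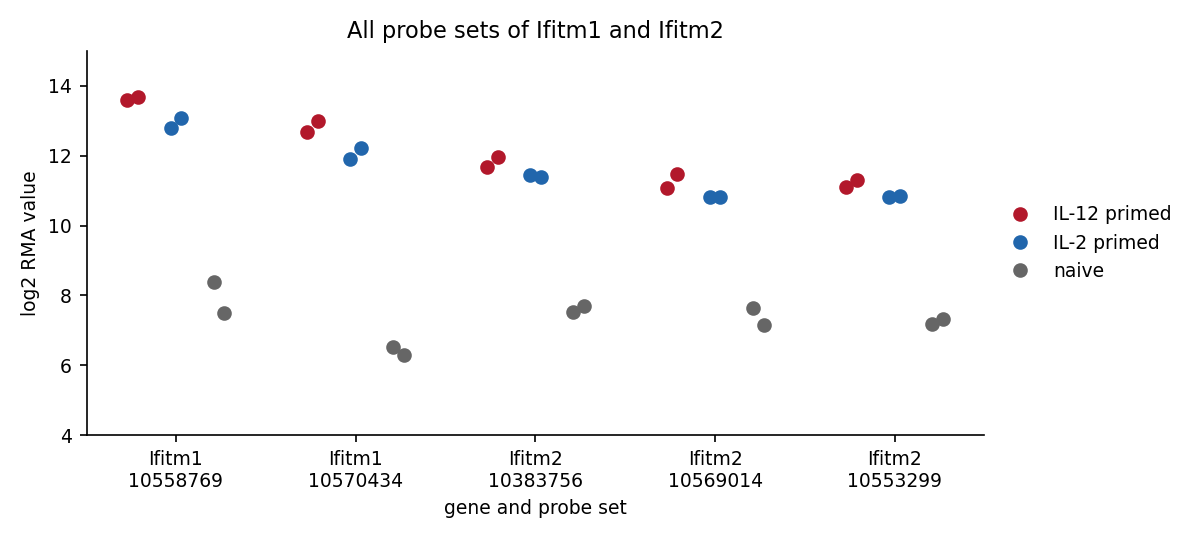
Log2 RMA values on each array of the 2 probe sets of Ifitm1 and the 3 of Ifitm2; each point is 1 array, coloured by group. In every probe set both IL-12 arrays lie above both IL-2 arrays, and the naive arrays lie at least 3 log2 units lower.

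Between the primed groups, Ifitm2 rose in IL-12 cells and was the single member to pass the test. Its log2 difference, IL-12 minus IL-2, was 0.42 ± 0.13 (SE, n = 2 arrays per group), a 1.33-fold difference with a 95% interval of 0.13 to 0.71 (limma, Benjamini-Hochberg adjusted p = 0.0495). Of all 11147 tested genes, 9.82% were called higher and 11.0% lower in this contrast, 20.8% or 2321 genes in all, so 1 call among 4 tested members was not far from the background. Leaving out 1 primed array put that count between 737 and 1219, and leaving out either naive array put it at 3533. The Ifitm2 call lay at the threshold and was lost without IL-2 replicate 1 (adjusted p = 0.17), IL-2 replicate 2 (0.236) or IL-12 replicate 2 (0.311), with values of 0.0294 to 0.311 over all alternatives.

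Ifitm1 had the larger difference, 0.71 ± 0.25, with a 95% interval of 0.15 to 1.27, and missed the threshold (limma adjusted p = 0.0742). The interval is that of the single gene, not adjusted over genes. The naive arrays carried most of the spread in this gene: its SD was 0.06 in IL-12, 0.19 in IL-2 and 0.64 in naive cells, and the fit pools the 3 groups. With either naive array left out, which takes the spread from the primed groups alone, the same difference had a limma adjusted p of 0.00408. The second probe set of Ifitm1, tested on its own among 12297 probe sets, gave 0.78 ± 0.15 (limma adjusted p = 0.0116), an alternative added after the data were seen.

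Ifitm3 showed a difference of 0.49 ± 0.30, with a 95% interval of -0.20 to 1.18, and did not pass the test (limma adjusted p = 0.289). Ifitm10 showed -0.41 ± 0.15, with an interval of -0.75 to -0.07 (limma adjusted p = 0.0852), and passed with either naive array left out (adjusted p = 0.014). In Ifitm1, Ifitm2 and Ifitm3 both IL-12 arrays lay above both IL-2 arrays, an arrangement found in 36.1% of all tested genes, and in Ifitm10 both lay below, as in 33.4%. Ifitm5 (-0.02 ± 0.13; limma adjusted p = 0.947) and Ifitm7 (0.14 ± 0.11; limma adjusted p = 0.399) were not called, with intervals of -0.32 to 0.29 and -0.10 to 0.38. The family's order of levels was therefore IL-12, then IL-2, then naive for Ifitm1, Ifitm2 and Ifitm3 and the opposite for Ifitm10, and of the steps between the primed groups the one of Ifitm2 passed the test.

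**Figure D4:**
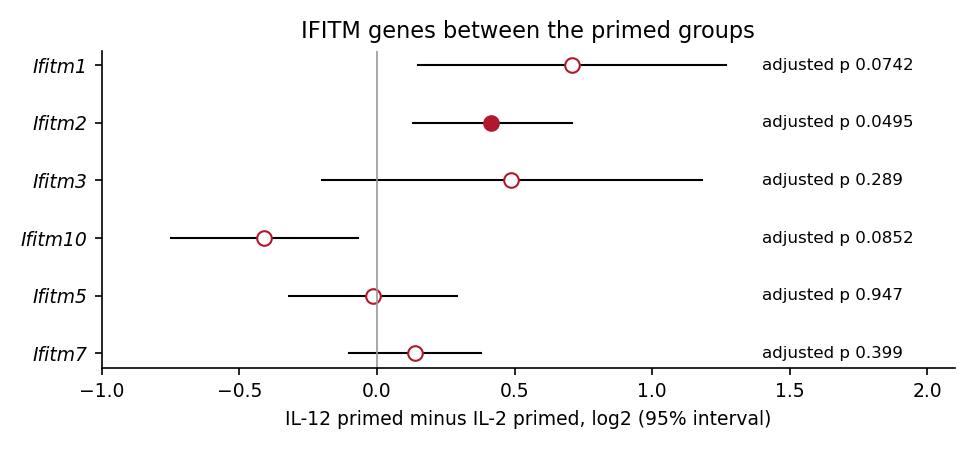
Difference of IL-12 primed minus IL-2 primed cells on the log2 scale for 6 IFITM genes, with 95% intervals of the single gene from the limma fit and the adjusted p beside each; the filled point passed the test. Ifitm1, Ifitm2 and Ifitm3 lie right of 0, Ifitm10 left of it and Ifitm5 and Ifitm7 near it.

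Most listed type I interferon-stimulated genes read lower in primed than in naive cells, where Ifitm1, Ifitm2 and Ifitm3 read higher. Of the 35 with values, 33 had a lower and 2 a higher mean in IL-12 than in naive cells, and 32 a lower and 3 a higher mean in IL-2 than in naive cells. The list's median difference was -1.35 in IL-12 and -0.80 in IL-2 cells, against 0.04 and 0.01 over all tested genes. The family was chosen by these contrasts, so the values describe and were not tested. With each array centred on its median, the median over all tested genes was 0.16 in IL-12 and 0.11 in IL-2 cells.

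Single genes of this list show the contrast with the IFITM genes. Ifit3, which encodes a relative of Ifit1, read 6.78 and 6.79 in IL-12 cells, 7.05 and 6.98 in IL-2 cells, and 10.27 and 10.58 in naive cells. Ifit1, whose product binds viral RNA caps, read 6.48 and 6.35 in IL-12 cells, 7.20 and 6.96 in IL-2 cells, and 9.94 and 10.51 in naive cells. Both genes hold ISRE cores in their promoter windows, as Ifitm2 and Ifitm3 do, and lay on the opposite side of naive cells. Usp18, which removes ISG15 from proteins and damps the type I receptor, differed from either pattern, with 10.84 and 10.03 in IL-12 cells, 6.36 and 6.29 in IL-2 cells, and 10.53 and 10.90 in naive cells.

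Between the primed groups, 14 of the 33 tested genes of the list fell and 2 rose in IL-12 cells, against 11.0% and 9.82% of all tested genes. The list's median difference was -0.26 against 0.02 over all tested genes. Of the 33, 4 passed the filter through the naive arrays only, and among these Ddx60 was called lower while below the filter value on every primed array. The 2 that rose were Usp18 and Mx1, which encodes an antiviral GTPase (0.47 ± 0.12; limma adjusted p = 0.0289). Rtp4, which encodes a receptor transporter protein, fell by 1.96, Xaf1, which encodes a pro-apoptotic protein, by 1.48 and Samd9l by 1.20 on the log2 scale (limma adjusted p from 2.82e-05 to 0.000132). Ifit1 fell by 0.67 (limma adjusted p = 0.0303), and Ifit3 had a difference of -0.23 ± 0.12 that was not called (limma adjusted p = 0.21).

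Genes known to respond to interferon gamma rose in part between the primed groups. Of 16 tested, 8 rose and 0 fell in IL-12 cells by limma, against 9.82% and 11.0% of all tested genes. At an unadjusted p under 0.05, 9 were higher and 1 lower. Of the 16, 2 passed the filter through the naive arrays only, and of these Ciita was called higher while below the filter value on every primed array. The list's median difference was 0.49, against 0.02 over all tested genes. Irf8, a transcription factor, rose by 2.43 ± 0.12, and the guanylate-binding protein genes Gbp5 and Gbp3 rose by 1.99 ± 0.12 and 1.69 ± 0.10. Gbp7 rose by 1.57 ± 0.12, and Cxcl10, a chemokine gene, by 1.56 ± 0.18. Adjusted p for these 5 genes ran from 8.79e-06 to 0.000686 (limma). Set against naive cells, 11 of the 17 with values had a higher and 6 a lower mean in IL-12 cells, and 5 a higher and 12 a lower mean in IL-2 cells. Gbp5 read 7.32 and 7.44 in IL-2 cells, below the 8.05 and 8.01 of the naive arrays, where Ifitm1, Ifitm2 and Ifitm3 read far above them. Gbp3, Psmb8 and Psmb9 instead had the group order of Ifitm1 without overlap, with IL-2 cells 0.585, 0.279 and 0.886 above naive cells. Of all tested genes, 36.1% had both IL-12 arrays above both IL-2 arrays, and 38.7% both IL-2 arrays above both naive arrays. The step from IL-2 to IL-12 cells was not called in Psmb8 (0.08 ± 0.10; limma adjusted p = 0.585) or Psmb9 (0.14 ± 0.13; limma adjusted p = 0.512).

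**Figure D5:**
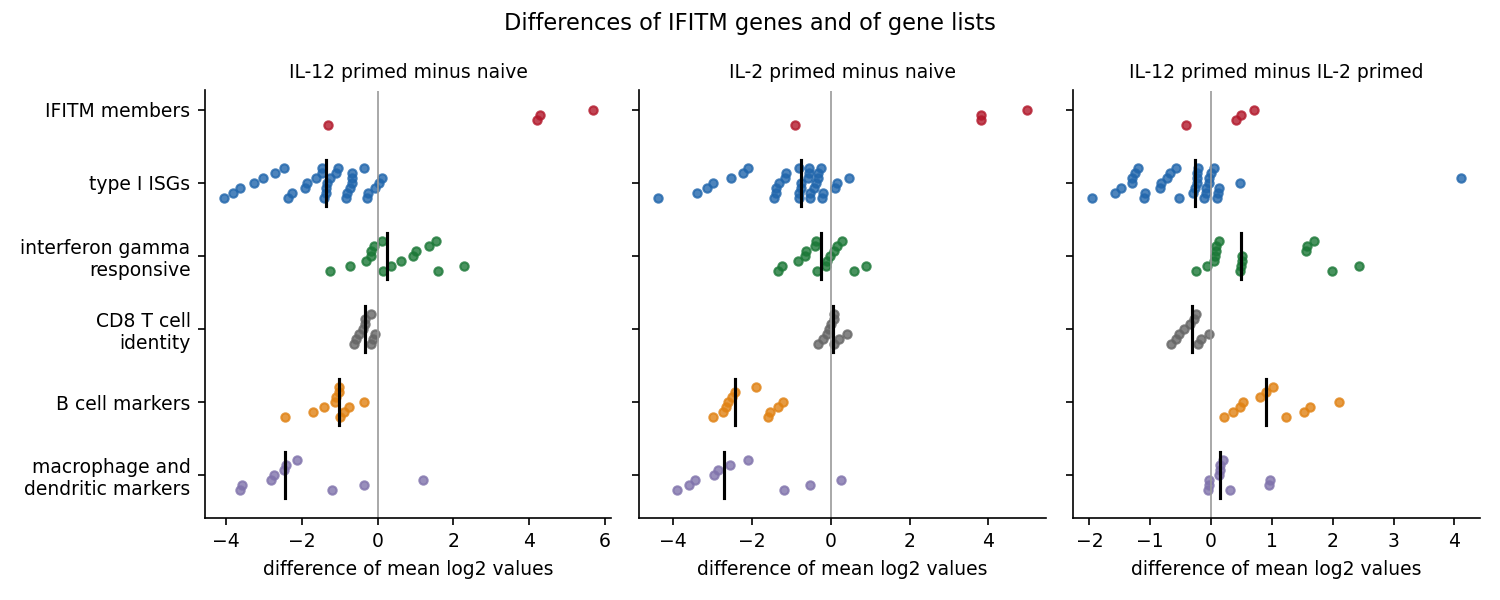
Difference of mean log2 values in 3 contrasts for the 4 tested IFITM members and for the tested genes of 5 lists; each point is a gene and each black bar the median of a list other than the IFITM members. In both contrasts with naive cells, 3 IFITM members lie at 3.80 or above while the medians of the tested type I interferon-stimulated genes lie at -1.35 and -0.77. The far right point among these genes in the third panel is Usp18. Some points passed the filter through the naive arrays only, which favours negative differences from naive cells. These were 4 of 33 type I, 2 of 16 interferon gamma, 3 of 11 B cell and 7 of 10 macrophage and dendritic genes.

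Interferon ligands, receptors and signalling genes differed among the groups as well. Ifng, which encodes interferon gamma, read 12.35 and 12.08 in IL-12 cells, 10.25 and 9.43 in IL-2 cells, and 6.96 and 6.76 in naive cells, the group order of Ifitm1. It rose by 2.37 ± 0.23 with IL-12 over IL-2 (limma adjusted p = 0.00027). Of 4 receptor chains, 3 fell between the primed groups and Ifngr1 was not called (-0.22 ± 0.10; limma adjusted p = 0.149). Ifngr2, the second chain of the interferon gamma receptor, read 6.44 and 6.87 in IL-12 cells, 7.48 and 7.57 in IL-2 cells, and 10.77 and 11.02 in naive cells, and fell by 0.87 with IL-12 over IL-2 (limma adjusted p = 0.00543). Ifnar2 and Ifnar1, the chains of the type I receptor, fell by 1.10 and 0.89 with IL-12 over IL-2 (limma adjusted p = 0.000416 and 0.000499). Irf9, the DNA-binding subunit of the complex that recognises the ISRE, fell by 0.58 (limma adjusted p = 0.0133). Of the 13 tested genes of this list, Usp18 among them, 3 rose and 5 fell between the primed groups, against 9.82% and 11.0% of all tested genes. Irf7, an ISRE-binding factor and type I target encoded 19 annotated genes beyond Ifitm6 on chromosome 7, read 8.02 and 7.77 in IL-12 cells, 9.23 and 9.16 in IL-2 cells, and 10.46 and 10.75 in naive cells, and fell by 1.30 between the primed groups (limma adjusted p = 0.000354).

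Genes for proteins that modify or accompany IFITM proteins, mostly known from human cells, were called about as often as genes at large. Of 10 tested, 1 rose and 1 fell with IL-12 over IL-2, against 20.8% of all tested genes called. Setd7, whose product methylates IFITM3, fell by 0.71 (limma adjusted p = 0.00216), and Fyn, whose product phosphorylates it, rose by 0.52 ± 0.10 (limma adjusted p = 0.00815). Zdhhc20, a palmitoyltransferase gene, had a difference of -0.05 ± 0.10 between the primed groups, and read 9.70 and 9.76 in IL-12 cells, 9.84 and 9.71 in IL-2 cells, and 10.62 and 10.54 in naive cells. Zmpste24, whose product acts with IFITM proteins against viruses, was not called between the primed groups (0.15 ± 0.12; limma adjusted p = 0.436), and read 10.56 and 10.72 in IL-12 cells, 10.53 and 10.46 in IL-2 cells, and 9.81 and 10.06 in naive cells. Vcp, an ATPase gene, had a difference of 0.25 ± 0.10 and was not called (limma adjusted p = 0.116).

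The tetraspanin genes went apart from each other. Cd81 rose by 0.92 ± 0.16 with IL-12 over IL-2 (limma adjusted p = 0.00491), whereas Cd9 fell by 1.28 (limma adjusted p = 0.000586). Cd81 read 10.86 and 10.82 in IL-12 cells, 9.91 and 9.93 in IL-2 cells, and 9.88 and 10.40 in naive cells. Cr2, a B cell coreceptor gene, had a difference of 0.22 ± 0.15 and was not called (limma adjusted p = 0.335). It passed the filter through the naive arrays only and lay below the filter value on every primed array, so this test says little. Among 11 tested genes for other factors that restrict viruses, 1 rose and 2 fell between the primed groups, against 9.82% and 11.0% of all tested genes. The 2 that fell were Slfn2, by 0.57, and Zc3hav1, which encodes an antiviral RNA-binding protein, by 0.44 (limma adjusted p = 0.00543 and 0.0467). Rsad2, which encodes viperin, had a difference of -0.01 ± 0.23, Trim30a one of -0.22 ± 0.11, Serinc3 one of -0.29 ± 0.11 and Apobec3 one of -0.17 ± 0.14, and none of the 4 was called (limma adjusted p from 0.106 to 0.986). Rsad2 likewise passed the filter through the naive arrays only and lay below the filter value on every primed array.

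Genes beside the cluster were read as well. Of the 6 annotated genes on each side, 6 in all were tested. Psmd13, which encodes a proteasome subunit, lay 0.99 above naive in IL-12 cells and 0.67 above it in IL-2 cells. Nlrp6, Pgghg, Pkp3 and Sigirr differed less from naive cells, at most by -0.20, in Sigirr in IL-12 cells. B4galnt4, a glycosyltransferase gene and the nearest tested one beyond Ifitm6, read 8.50 and 9.04 in IL-12 cells, 7.05 and 7.14 in IL-2 cells, and 6.44 and 6.33 in naive cells, and rose by 1.68 ± 0.17 between the primed groups (limma adjusted p = 0.000275). Inside the cluster, Ifitm1, Ifitm2 and Ifitm3 differed from naive cells by 3.80 or more. Ifitm5 and Ifitm6, which lie in the same cluster, had lower means in both primed groups than in naive cells.

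The genes most like each member over the 6 arrays were found by the Euclidean distance between log2 profiles, each gene centred on its own mean. Such distances grow with the size of a gene's differences. The arrays fall into 3 groups that all such genes separate, so the distances describe and were not tested. Ifitm2 lay closest to S100a6, a calcium-binding protein gene, at a distance of 0.18, closer than to Ifitm3 at 0.67 or to Ifitm1 at 1.76. S100a6 read 11.59 and 11.82 in IL-12 cells, 11.49 and 11.39 in IL-2 cells, and 7.53 and 7.74 in naive cells. The next were Ncapg2, a condensin gene (0.20), Cenph, a kinetochore gene (0.21), Dtl (0.27) and Shcbp1 (0.28).

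Ifitm3 lay closest to Rrm2, a ribonucleotide reductase gene (0.56), and to Cdk1, the mitotic kinase gene (0.63), followed by Ckap2l, Ncapg2 and S100a6. Rrm2 read 7.54 and 8.24 in naive cells, with the same array high as in Ifitm3. Ifitm1 lay farther from any gene outside the family than Ifitm2 and Ifitm3 did. Its nearest were Gzmb, which encodes granzyme B (1.02), Il2ra, which encodes the alpha chain of the IL-2 receptor (1.11), Mt2, a metallothionein gene (1.14), Hmmr (1.14) and Fads2 (1.26). Gzmb read 12.35 and 12.62 in IL-12 cells, 12.76 and 12.54 in IL-2 cells, and 7.93 and 7.17 in naive cells, and its IL-12 and IL-2 arrays overlapped. Ifitm10 lay within 0.16 of Tnrc6b, Dennd1a, Vps13b, Kat6b and Herc2, all of which read highest in naive cells.

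All 10 CD8 T cell identity genes with values lay above the filter value on every array. By limma 5 of them fell and 0 rose with IL-12 over IL-2, against 11.0% and 9.82% of all tested genes (7 and 0 at an unadjusted p under 0.05). Markers of B cells and of macrophages and dendritic cells moved with the groups. All 11 B cell markers and 11 of 12 macrophage and dendritic cell markers with values had a lower mean in either primed group than in naive cells, the opposite direction to Ifitm1, Ifitm2 and Ifitm3. The other 2 lists held few tested genes, 2 of natural killer cells (Gzma rose and Eomes fell with IL-12 over IL-2) and 1 of erythroid cells and platelets, which was not called. The remaining natural killer genes, Ncr1, Klrb1c, Klra8, Klre1 and Klri2, lay below the filter value on every array. The median level of the 12 macrophage and dendritic markers with values was 6.23 to 6.24 in IL-12 cells, 5.93 to 6.10 in IL-2 cells and 8.22 to 8.75 in naive cells. C1qb, a macrophage marker, read 9.03 and 10.03 in naive cells, with the same array high as in Ifitm3. That array was also the higher one in every other marker of the list with values, except Mpeg1 (9.115 and 9.031) and Itgax (7.845 and 7.704). Between the primed groups, 2 of the 10 tested macrophage and dendritic cell markers (Itgam and Mpeg1) rose in IL-12 cells. So did 9 of 11 B cell markers, against 9.82% of all tested genes, and this was the side on which Ifitm2 rose. Of these markers, 7 of the 10 and 3 of the 11 passed the filter through the naive arrays only. Mpeg1, Blk and Ebf1 were among them, so their rises lay below the filter value of 6.83 on every primed array. The B cell markers had a median level of 7.66 to 7.81 in IL-12 cells and 6.46 to 6.56 in IL-2 cells. The part of these cells in the IFITM values was not tested. None of 11 neutrophil markers lay above the filter value in any group.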

How the data were processed

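Biotin-labelled RNA of each of the 6 samples was measured on an Affymetrix array, per the labels. The authors deposited log2 values of 35556 probe sets, and the submitters' processing notes name RMA as the tool. RMA as a method corrects background, gives all arrays 1 distribution of probe values and summarises probes, so it can hide a shift shared by most genes. The deposited values themselves did not have exactly 1 distribution, as quantile normalization changed the count of genes called between the primed groups from 2321 to 2061. Its version and settings, and the build of the array's annotation, are not given in the sources used here. Every value column belonged to a sample.

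Of the probe sets, 21789 carried 1 gene symbol in the platform annotation, which can be old, 1621 carried several and 12146 were not listed, and only the first kind was used. Names were updated through RefSeq's gene table (GRCm38.p6), in which 21698 of their gene IDs were found. Each gene was its probe set of highest mean. Genes entered the test if 2 or more of the 6 arrays exceeded 6.83, the 50th percentile over the whole table, which left 11147 of 19938.

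The 6 arrays were fitted together in limma 3.58.1 (R 4.3.3), with a mean for each group and an empirical Bayes variance (3 residual and 5.62 prior degrees of freedom). Tests were two-sided, p-values were adjusted by Benjamini-Hochberg over all tested genes, and 0.05 was the threshold. The script was tested on simulated data. Alternatives were other filters, the mean of probe sets, quantile normalization, median centring, another variance model, the compared groups alone, a replicate block, leaving out each array and, added after the data were seen, single probe sets.

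The members and lists were chosen with earlier results of these data known. Besides the members, the rule named per list up to 4 called genes with the smallest adjusted p between the primed groups and up to 4 with the largest difference from naive cells, the 5 nearest profiles of each member and the tested genes beside the cluster. Irf7 was named after its values were seen.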

Additional observations from a re-analysis of the deposited data

How the results depend on the processing

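No difference of Ifitm1, Ifitm2, Ifitm3 or Ifitm10 changed direction under any alternative run. The primed-minus-naive differences of Ifitm1 lay between 4.53 and 6.14, and on its second probe set at 6.42 in IL-12 and 5.65 in IL-2 cells. Which members passed the test between the primed groups did depend on the setting. Of Ifitm1, Ifitm2 and Ifitm3, 1 was called higher in the fit reported, 0 with no filter on low values, quantile normalization or median centring, 2 with the mean of probe sets or with the compared groups alone, and 0 to 2 when single arrays were left out. Ifitm1 passed with the mean of its probe sets (0.74), with the compared groups alone (0.71) and on its second probe set (0.78), and ranged from 0.58 to 0.84 without single arrays. Ifitm2 missed the threshold with no filter (0.42), quantile normalization (0.38), median centring (0.43) and on its other probe sets (0.45 and 0.37), and ranged from 0.27 to 0.56 without single arrays. Ifitm10 passed with the compared groups alone (-0.41) and with either naive array left out, could not be tested with the filter at the 75th percentile, and ranged from -0.48 to -0.35 without single arrays. Ifitm3 was called under none of its 14 alternatives, with adjusted p from 0.0555 to 0.745 (limma). The count of genes called between the primed groups was 2321, 3533 with the compared groups alone and 737 to 3533 without single arrays. The count of type I interferon-stimulated genes that fell stayed between 11 and 15. A group left with 1 array was assumed to vary like the others. The cause of these shifts was not tested, except that dropping an array of a primed group leaves fewer samples.

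The labels number the replicates 1 and 2 in each group, but nothing says that a number marks a shared mouse or day. Deviations of same-numbered arrays correlated at 0.152 between IL-12 and IL-2 cells, -0.042 between IL-12 and naive and 0.018 between IL-2 and naive cells. With the replicate number as a block, 2414 genes were called and Ifitm10 passed (-0.41; limma adjusted p = 0.046), while Ifitm1, Ifitm2 and Ifitm3 kept their side of the threshold. With 2 arrays a group, the number of arrays limits what can be seen, and of the members Ifitm6 lay too low to be tested.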
